A study of Bos grunniens x Bos taurus and Bos grunniens with 6 samples.

Results

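The DEAD-box (DDX) and DEAH-box (DHX) RNA helicases, together with the initiation factors EIF4A1, EIF4A2 and EIF4A3, were followed in the testis of cattle-yak and yak. Members were taken by symbol, as genes named DDX or DHX with a number plus the EIF4A genes, and each gene identifier was kept as a row of its own. This gave 59 of the 18918 genes of the table, 36 with a DDX symbol, 16 with a DHX symbol and 7 with an EIF4A symbol, under 52 different symbols. The testes came from 3 cattle-yak, the F1 of a Jersey bull and a Gannan yak cow, whose males are sterile, and from 3 male Gannan yak. The 6 animals were all 4 years old, and each gave 1 library (C1 to C3 for cattle-yak, Y1 to Y3 for yak), without pooling. Cattle-yak testes were removed by castration and yak testes after euthanasia, in different counties, so that place and way of collection cannot be told apart from the cross. Reads of both groups were mapped to the yak genome, so that transcripts of the cattle alleles were also counted against yak gene models, and the part of this in any difference was not tested.

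RNA helicases of these families use ATP to open short duplexes or to strip proteins from RNA, and some member acts at nearly every step in the life of an mRNA, from splicing and export to translation, storage and decay. Others help to build ribosomes or sense viral RNA. Germ cells depend on them in a particular way, because spermatids store mRNAs untranslated while transcription shuts down, and a few members are made almost only in the germ line.

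Levels were FPKM, the fragments on a gene per kilobase of its model, scaled to the depth of the library, so that levels of different genes can be set side by side. Libraries held 11175100 to 11834987 fragments on genes in cattle-yak and 12991641 to 13136129 in yak, and 1 fragment on a gene of 1 kb was worth 0.0761 to 0.0895 FPKM. Groups were compared with limma on log2(FPKM + 1) over the 15042 genes with a mean of at least 0.5 FPKM. The threshold for a call was 0.05 for the Benjamini-Hochberg adjusted p over all tested genes, together with a log2 fold change (cattle-yak minus yak) beyond 1 in either direction. Fold changes below are on this scale, with the standard error of the fit, and understate the change of low genes. Of the 59 members 57 were tested. The remaining 2, a DDX19A model of 459 bases and an EIF4A2 model of 861 bases, were below the minimum.

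The 3 rows of germ cell helicases fell in cattle-yak testis, by 2.21-fold to 19.3-fold of the mean FPKM, and many of the general helicases rose on the deposited scale. Nearly all of those general helicases turned below 0 when libraries were centred on Sertoli cell genes, which moved the median of all tested genes to -1.63. On the deposited scale 20 members were called higher in cattle-yak, 35.1% of those tested against 33.4% of all genes, and 8 were called lower, 14% against 20.8% of all genes. The adjusted p was under 0.05 at any fold change in 47 members, 82.5% against 81.9% of all genes, and the groups did not overlap in 48, 84.2% against 84.1%. As shares these were close to the background, and the median log2 fold change of 0.63 over the members stood beside 0.51 over all tested genes. The study's own count test, at the same thresholds, reported more genes lower than higher in cattle-yak, the reverse of the deposited scale here. Since most genes of the table were higher in cattle-yak as deposited, the values were also scaled by the median of ratios. This sets the typical gene equal between libraries and moved the median of all genes to 0.014 and that of the members to 0.10. After this scaling 7 members were called higher, 12.3% against 17.7% of all genes, and 10 were called lower, 17.5% against 27.7%. The 8 lower members were among those 10, and the 20 higher members kept their sign, at 0.42 to 1.57, whereas with libraries centred on Sertoli cell genes 19 of the 20 lay below 0, the exception being DDX3X. In these bulk libraries fewer cells of a type and less RNA per cell cannot be told apart.

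**Figure D1:**
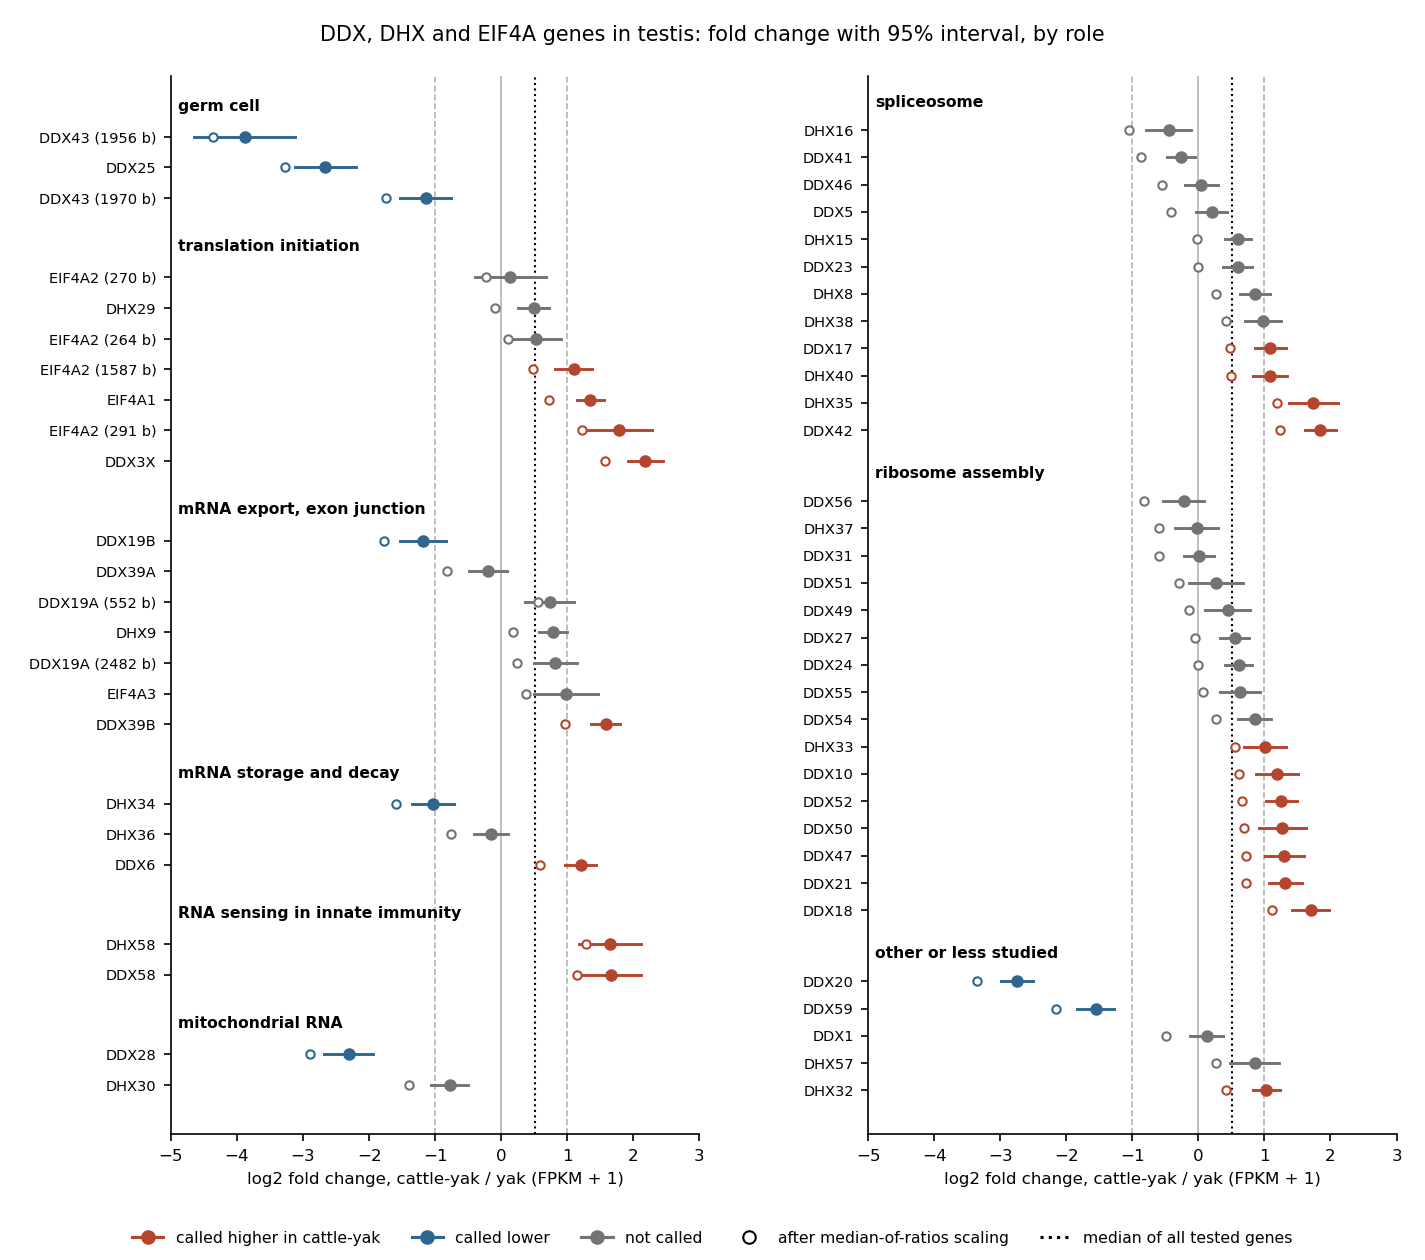
Log2 fold change of the 57 tested members (x axis, cattle-yak over yak on FPKM + 1, filled points with 95% intervals), grouped by role, with open points for the value after median-of-ratios scaling and a dotted line at 0.51, the median of all tested genes. The germ cell role lies wholly left of 0, from -3.88 to -1.14, and translation initiation wholly right of it on the deposited scale, from 0.14 to 2.18, although 2 of its members move left of 0 after median-of-ratios scaling and 6 of 7 when libraries are centred on Sertoli genes. That centring moves the median of all tested genes to -1.63.

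The 3 germ cell rows all fell. DDX25, the gonadotropin-regulated testicular helicase, which carries and stores mRNAs in spermatids, stood at 135.6, 84.2 and 75.4 FPKM in C1, C2 and C3 and at 594.6, 633.6 and 599.3 FPKM in Y1, Y2 and Y3. Every yak lay far above every cattle-yak, a 6.19-fold difference of the mean FPKM, and the log2 fold change was -2.67 ± 0.20 (SE, adjusted p = 5.49e-06). DDX43, a cancer-testis antigen, stood on 2 gene models of nearly the same length. The model of 1956 bases (ENSBGRG00000008530) held 4.10, 1.46 and 0.837 FPKM in C1 to C3 and 43.3, 41.9 and 38.1 FPKM in Y1 to Y3. These are 95, 32 and 19 fragments against 1113, 1075 and 969, and its log2 fold change of -3.88 ± 0.33 (adjusted p = 1.12e-05) was the lowest of the family. The model of 1970 bases (ENSBGRG00000009400) held 38.9, 26.3 and 25.0 FPKM in C1 to C3 and 63.8, 64.4 and 71.3 FPKM in Y1 to Y3. It was the milder of the pair, at -1.14 ± 0.17 (adjusted p = 0.000257), with groups that did not overlap. Within a library the level of the 1956-base model was 0.105, 0.0557 and 0.0335 of the other in C1 to C3, and 0.679, 0.651 and 0.534 of it in Y1 to Y3. How the counting divided reads between such near copies is not given in the sources used here, so the split between them is uncertain.

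Another 5 members, outside the germ cell role, were called lower. DDX20, the Gemin3 subunit of the SMN complex that assembles spliceosomal snRNPs, stood at 37.1, 34.8 and 32.4 FPKM in C1 to C3 and at 252.8, 211.6 and 253.9 FPKM in Y1 to Y3. It showed the smallest adjusted p of the family, 2.76e-07 in limma, at a log2 fold change of -2.75 ± 0.11, and in yak it reached the level of EIF4A1. DDX28, which helps to assemble the large subunit of the mitochondrial ribosome, held 17.4, 11.5 and 12.7 FPKM in C1 to C3 and 69.5, 80.6 and 65.4 FPKM in Y1 to Y3, at -2.31 ± 0.16 (adjusted p = 3.79e-06). DDX59, known from an inherited orofaciodigital syndrome, held 38.6, 37.8 and 30.8 FPKM against 102, 119 and 99.3 FPKM, at -1.56 ± 0.12 (adjusted p = 7.07e-06). In none of these did a cattle-yak reach the lowest yak.

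DDX19B, which releases mRNA from export factors at the nuclear pore, held 15.5, 10.3 and 14 FPKM in C1 to C3 and 32.0, 29.3 and 31.9 FPKM in Y1 to Y3, at -1.19 ± 0.15 (adjusted p = 0.000118). DHX34, a factor of nonsense-mediated decay, held 7.84, 6.86 and 6.01 FPKM in C1 to C3 and 14.7, 16.7 and 14.1 FPKM in Y1 to Y3. Its log2 fold change was -1.03 ± 0.14 (adjusted p = 0.000155), and the call was lost at -0.95 without C3 and at -0.97 without Y2. C1 was the highest of the cattle-yak in 8 of the 8 lower members and in 2 of the 20 higher ones. The same held for 66.1% of all genes called lower and 18% of those called higher, so this order of the cattle-yak went beyond the helicases.

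**Figure D2:**
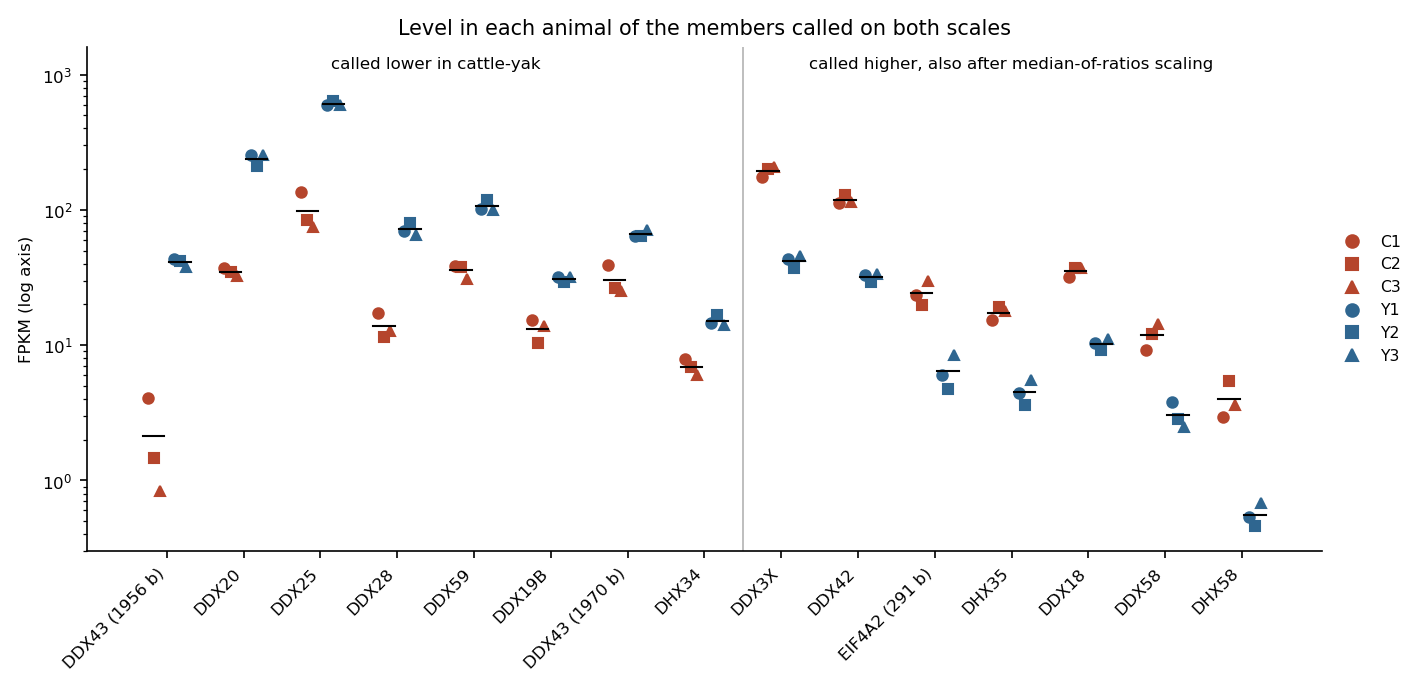
FPKM (y axis, log scale) of the 8 members called lower and the 7 called higher both as deposited and after median-of-ratios scaling, with a point for each animal and a bar at the mean of each group (n = 3). No group overlaps the other in any of the 15, which were picked by their calls, and the groups do not overlap in 84.1% of all tested genes. C1 is the top cattle-yak point in all 8 lower members. When libraries are centred on Sertoli genes, the 7 higher members other than DDX3X change sign, and the median of all tested genes moves to -1.63.

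Markers of late germ cells moved with these lower members. All 6 tested round spermatid markers and all 7 rows of the 6 elongating spermatid markers found were called lower in cattle-yak. Summed over the list, the round spermatid markers held 26.0, 12.4 and 4.88 FPKM in C1, C2 and C3 against 558 to 632 FPKM in yak, and the elongating spermatid markers 78.7, 29.4 and 15.8 FPKM against 9193 to 11331 FPKM. C1 was the highest of the cattle-yak here too, while SPACA3 was at 0 in C2 and TXNDC2 at 0 in C2 and C3. Of the 6 spermatocyte markers 1 was higher and 0 were lower as deposited, and 0 were higher and 2 lower after median-of-ratios scaling, with sums as deposited of 187 to 329 FPKM in cattle-yak and 241 to 288 FPKM in yak. The part of these cell types in the lower helicases was not tested.

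The makeup of the family shifted more than its sum. Added over the 59 members, helicase FPKM came to 3840, 3795 and 3938 in C1 to C3 and to 3274, 3283 and 3280 in Y1 to Y3, which is 0.651% ± 0.003 (SD, n = 3) and 0.545% ± 0.008 of the FPKM of a library. DDX25 was the most abundant member in all 3 yak, with 18.6% ± 0.629 of the family FPKM, and ranked 9, 13 and 16 in C1, C2 and C3, with 2.56% ± 0.860. EIF4A1 was the most abundant in all 3 cattle-yak, with 15.0% ± 0.401 of the family FPKM against 6.91% ± 0.353 in yak. The ratio of DDX25 to EIF4A1 within a library, which needs no scaling between libraries, was 0.242, 0.148 and 0.124 in C1 to C3 and 2.79, 2.73 and 2.55 in Y1 to Y3. DDX5 was the second member in all 6 animals, at 8.59% ± 0.635 and 8.79% ± 0.764. The 8 lower rows together made up 36.0% ± 0.385 of the family in yak and 6.10% ± 1.4 in cattle-yak. This is a description of the rows the test selected.

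**Figure D3:**
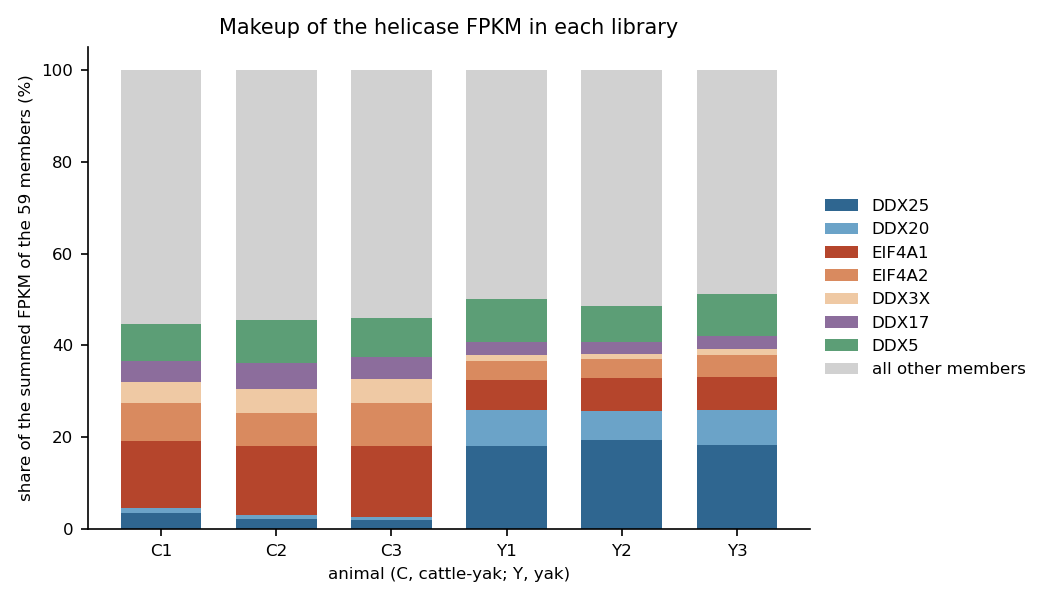
Share of the summed FPKM of the 59 members (y axis, %) in each animal (x axis), split into 7 members and the rest, with the 5 rows of EIF4A2 added together. DDX25 and DDX20 (blues) fill 18.2% to 19.3% and 6.45% to 7.74% of the family in yak and shrink to at most 3.53% and 0.966% in cattle-yak, while DDX5 (green) keeps 7.91% to 9.32% in every animal.

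Translation initiation held EIF4A1, the most abundant member in cattle-yak. Of its 7 tested rows 4 were called higher (57.1% against 33.4% of all genes) and 0 lower, beside 20.8% of all genes. After median-of-ratios scaling 2 were higher (28.6% against 17.7%) and 0 lower, beside 27.7% of all genes. The median of 1.10 was 0.48 after that scaling and -1.05 when centred on Sertoli genes. EIF4A1, which unwinds mRNA leaders within eIF4F, stood at 560, 570 and 606 FPKM in C1 to C3 and at 213, 232 and 235 FPKM in Y1 to Y3, at 1.35 ± 0.09 (adjusted p = 2.85e-06). It was not called after median-of-ratios scaling, at 0.73, and lay at -0.80 when centred on Sertoli genes. EIF4A2, its close paralog, stood on 5 rows. The main one, of 1587 bases (ENSBGRG00000001653), held 295, 246 and 330 FPKM against 131, 129 and 142 FPKM, at 1.10 ± 0.12 (adjusted p = 4.78e-05). Its call was likewise lost after median-of-ratios scaling, at 0.48, and it lay at -1.05 when centred on Sertoli genes, although the groups did not overlap in either gene as deposited. A short EIF4A2 model of 291 bases (ENSBGRG00000015683) was also higher, at 23.5, 19.7 and 29.6 FPKM against 6.02, 4.72 and 8.46 FPKM, a log2 fold change of 1.78 ± 0.22 (adjusted p = 8.70e-05), which was 1.22 and called after median-of-ratios scaling and -0.36 when centred on Sertoli genes. The models of 264 and 270 bases were not called, at 0.53 (95% interval 0.14 to 0.91) and 0.14 (-0.40 to 0.68), and that of 861 bases was at 0 in 4 animals. Such short copies may share reads with the main gene and are uncertain.

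DDX3X, the X-linked helicase that helps ribosomes through structured mRNA leaders, had the largest rise of the family. It stood at 175, 201 and 209 FPKM in C1 to C3 and at 43.4, 37.2 and 45.9 FPKM in Y1 to Y3, with every cattle-yak far above every yak. Its log2 fold change was 2.18 ± 0.12 (adjusted p = 9.50e-07), and it was 1.57 after median-of-ratios scaling and 0.04 when centred on Sertoli genes, the only one of the 57 members above 0 there. No member row carried the symbol of its Y-linked paralog, DDX3Y. Whether reads of such a copy were counted on DDX3X was not tested.

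Among the export and exon junction helicases 1 of 7 tested rows was higher (14.3% against 33.4% of all genes). DDX19B alone was lower (14.3% against 20.8% of all genes). After median-of-ratios scaling 0 were higher, beside 17.7% of all genes, and 1 was lower (14.3% against 27.7%). DDX39B, which loads export factors onto spliced mRNA in the TREX complex, stood at 147, 171 and 159 FPKM in C1 to C3 and at 50.3, 52.8 and 54.2 FPKM in Y1 to Y3, at 1.58 ± 0.09 (adjusted p = 1.68e-06). After median-of-ratios scaling it lay at 0.97, short of the threshold, and when centred on Sertoli genes at -0.56. Its paralog DDX39A, the most abundant member of this role over all animals, held 120, 90.0 and 102 FPKM against 109, 121 and 128 FPKM, groups that overlapped, at -0.20 (95% interval -0.49 to 0.09). DDX19A stood on 3 rows, and its main model of 2482 bases held 20.8, 24.0 and 25.4 FPKM against 12.2, 11.3 and 15.2 FPKM. It passed the adjusted p (0.000732) but not the fold threshold, at 0.82 ± 0.14. The other tested DDX19A model, of 552 bases, stayed under 1 FPKM in all 6 animals. Chosen after its values were seen, EIF4A3 lay just short of the fold threshold, at 0.98 ± 0.21 (adjusted p = 0.00234 in limma). It was called higher without C1, C2, Y1 or Y2. After median-of-ratios scaling it lay at 0.37 and was not called, and when centred on Sertoli genes it lay at -1.16.

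**Figure D4:**
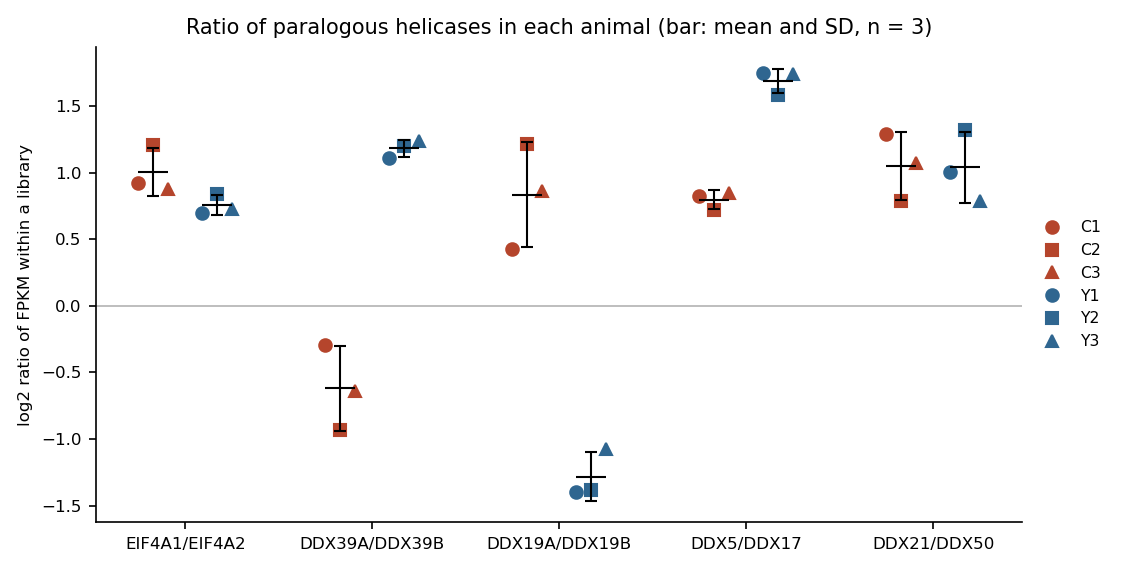
Log2 ratio of the FPKM of 2 paralogs within a library (y axis) for 5 pairs, with a point for each animal and bars for the mean and SD of each group (n = 3). DDX39A/DDX39B and DDX19A/DDX19B lie on opposite sides of 0 in the groups, DDX5/DDX17 is lower in every cattle-yak, and DDX21/DDX50 overlaps.

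Ratios of paralogs within a library do not depend on the scaling between libraries, and 5 pairs were compared by two-sided exact permutation of the 6 animals, for which the smallest p of the 10 splits is 0.1. DDX39A was 0.525 to 0.816 of DDX39B in cattle-yak and 2.16 to 2.36 of it in yak, so that DDX39A was the major paralog in all 3 yak and DDX39B in all 3 cattle-yak. The difference of the mean log2 ratio was -1.80 (exact p = 0.1, adjusted p = 0.125). DDX19A was 1.34 to 2.33 of DDX19B in cattle-yak and 0.380 to 0.476 of it in yak, a difference of 2.12 with the same exact p, and DDX19B was the major paralog in yak alone. DDX5, which acts with DDX17 in transcription and splicing, was 1.64 to 1.80 of DDX17 in cattle-yak against 3.0 to 3.36 in yak, a difference of -0.89 (exact p = 0.1). EIF4A1 was 1.84 to 2.31 of EIF4A2 in cattle-yak and 1.62 to 1.79 of it in yak, a small difference of 0.25 (exact p = 0.1). DDX21 and DDX50, nucleolar paralogs, kept overlapping ratios, 1.72 to 2.45 and 1.73 to 2.50, with a difference of 0.01 (exact p = 1).

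Of the 12 spliceosome members 4 were called higher, 33.3% against 33.4% of all genes, and 0 lower, beside 20.8% of all genes. After median-of-ratios scaling 2 were higher, 16.7% against 17.7%, and 1 lower, 8.33% against 27.7%. The median of 0.73 was 0.13 after that scaling, where 6 lay above 0 and 6 below, and -1.42 when centred on Sertoli genes. DDX42, a helicase of the U2 snRNP, stood at 112, 128 and 114 FPKM in C1 to C3 and at 32.9, 29.5 and 33.8 FPKM in Y1 to Y3. Its log2 fold change of 1.85 ± 0.10 (adjusted p = 1.10e-06) was the largest of the role, and the groups were wide apart. DDX17 held 173, 214 and 186 FPKM against 90.9, 86.5 and 89.8 FPKM, at 1.09 ± 0.10 (adjusted p = 1.89e-05), and was 0.47 after median-of-ratios scaling. DDX5, the most abundant member of the role, differed little, at 308, 352 and 334 FPKM against 305, 260 and 299 FPKM, with a log2 fold change of 0.20 (95% interval -0.03 to 0.44, adjusted p = 0.0979). The lowest was DHX16, which remodels the spliceosome before the first step of splicing, at -0.45 ± 0.15 as deposited, which is not called, and -1.05 after median-of-ratios scaling, which is. Chosen after its values were seen, DHX35, found in the catalytic spliceosome, held 15.3, 19.0 and 17.9 FPKM against 4.46, 3.63 and 5.51 FPKM, at 1.74 ± 0.16 (adjusted p = 1.89e-05). It was called as deposited and after median-of-ratios scaling (1.19), as was DDX42 (1.24), but when centred on Sertoli genes neither was called, at -0.40 and -0.30. The remaining 2 higher members lay under 0.50 after median-of-ratios scaling.

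Ribosome assembly, the largest role with 16 members, had 7 higher, 43.8% against 33.4% of all genes, and 0 lower, beside 20.8% of all genes. After median-of-ratios scaling the role had 1 higher, 6.25% against 17.7%, and 0 lower, beside 27.7% of all genes. Its median of 0.74 was 0.17 after median-of-ratios scaling, with 9 members above 0 and 7 below, and -1.40 when centred on Sertoli genes. DDX18, a nucleolar helicase, rose most, at 32.0, 37.4 and 37.2 FPKM in C1 to C3 and 10.4, 9.25 and 11.1 FPKM in Y1 to Y3, a log2 fold change of 1.70 ± 0.12 (adjusted p = 3.91e-06). It was the only member of the role called higher after median-of-ratios scaling, at 1.11. DDX21, a large nucleolar helicase, held 60.5, 53.2 and 64.1 FPKM against 24.8, 22.7 and 21.9 FPKM, at 1.32 ± 0.11, and its paralog DDX50 held 24.7, 30.9 and 30.4 FPKM against 12.3, 9.10 and 12.6 FPKM, at 1.27 ± 0.16. The other higher members, DDX10, DDX47, DDX52 and DHX33, lay between 1.01 and 1.30, and DHX33 lost its call at 0.97 without C2 and 0.99 without Y1. DDX31, the most abundant of the role, overlapped between the groups, at 159, 134 and 149 FPKM against 143, 156 and 139 FPKM, with an interval of -0.22 to 0.24 around 0.01. The lowest, DDX56, lay at -0.23 (95% interval -0.53 to 0.08), with groups that overlapped.

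DDX6, which represses and helps to decap stored mRNAs in P-bodies, was called higher, at 100.2, 99 and 97.8 FPKM in C1 to C3 and 48.0, 39.1 and 40.6 FPKM in Y1 to Y3. Its log2 fold change of 1.20 ± 0.10 (adjusted p = 1.14e-05) became 0.60 after median-of-ratios scaling and -0.94 when centred on Sertoli genes. Of the 3 members of this storage and decay role DDX6 was thus higher and DHX34 lower. In the mitochondrial role DHX30, a factor of mitochondrial RNA granules, held 48.6, 45.8 and 41.6 FPKM against 83.1, 87.1 and 66.9 FPKM. It was not called as deposited, at -0.78 ± 0.12 (adjusted p = 0.000442), and was called at -1.39 after median-of-ratios scaling. DHX32 rose among the less studied members, at 147, 140 and 132 FPKM against 67.3, 72.1 and 64.7 FPKM, with 1.03 ± 0.09 (adjusted p = 1.36e-05), but it lay at 0.99 without C1 or without Y3 and at 0.42 after median-of-ratios scaling.

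Both RNA sensors of the family were called higher as deposited, at low levels. DDX58 (RIG-I), which detects viral RNA ends, stood at 9.27, 12.1 and 14.2 FPKM in C1 to C3 and at 3.79, 2.82 and 2.50 FPKM in Y1 to Y3, at 1.67 ± 0.19 (adjusted p = 6.65e-05). DHX58 (LGP2), which modulates that response, stood at 2.94, 5.41 and 3.62 FPKM against 0.533, 0.463 and 0.683 FPKM, at 1.65 ± 0.20 (adjusted p = 9.87e-05). Both kept their calls after median-of-ratios scaling, at 1.15 and 1.29, and lay at -0.48 and -0.49 when centred on Sertoli genes. The third sensor of this type, IFIH1 (MDA5), is no member by symbol and went the other way, at 3.41, 3.82 and 3.62 FPKM against 19.9, 18.0 and 22.2 FPKM, a log2 fold change of -2.18 ± 0.13 (adjusted p = 1.66e-06). The ratio of DDX58 to IFIH1 within a library, taken after the values were seen, lay between 2.72 and 3.94 for cattle-yak and between 0.113 and 0.191 for yak. That of DHX58 to IFIH1 was 0.863 to 1.42 and 0.0257 to 0.0308.

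Somatic markers moved with the higher members. All 13 tested Sertoli rows, 7 of 7 Leydig rows and 6 of 6 myoid markers were called higher in cattle-yak, as were 6 of 8 spermatogonial markers. After median-of-ratios scaling these counts were 11, 5, 6 and 5. Summed over the list, Sertoli markers held 2535 to 2685 FPKM in cattle-yak and 510 to 579 FPKM in yak, Leydig markers 10446 to 12445 against 3345 to 4881 FPKM, and myoid markers 573 to 767 against 117 to 144 FPKM. Spermatogonial markers held 315 to 381 FPKM against 75.5 to 93.0 FPKM. Macrophage markers, 4 of 7 higher and 2 lower (2 and 2 after median-of-ratios scaling), held 120 to 168 against 109 to 141 FPKM, and endothelial markers, 3 of 7 higher and 1 lower (0 and 1 after it), held 35.9 to 59.5 against 32.0 to 37.3 FPKM, both with sums that overlapped. None of the somatic lists had a marker at 0 in any animal. The part of these cell types in the higher helicases was not tested.

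The genes that work with these helicases were mixed in direction. For the counts of each list, 33.4% of all genes were called higher and 20.8% lower as deposited. After median-of-ratios scaling these shares were 17.7% and 27.7%. Among 13 rows of eIF4A partners in initiation 2 were higher and 3 lower both as deposited and after median-of-ratios scaling, with a median of 0.14 and then -0.38. EIF4EBP1, which blocks the cap-binding factor, had the largest rise, at 13.7 to 15.6 FPKM in cattle-yak and 2.34 to 3.42 FPKM in yak (log2 fold change 1.95 ± 0.15, adjusted p = 7.43e-06). PABPC1, the poly(A)-binding protein and the most abundant gene of the list, fell, with 277 to 328 FPKM in cattle-yak against 911 to 1052 FPKM in yak (-1.71 ± 0.11, adjusted p = 2.04e-06). Of 24 exon junction and export rows 7 were higher and 1 lower at a median of 0.36, while after median-of-ratios scaling 3 were higher and 3 lower at a median of -0.22. The most abundant, NXT1, a cofactor of the export receptor, was not called as deposited, at 157 to 168 FPKM against 282 to 341 FPKM (-0.96 ± 0.10). It was called lower after median-of-ratios scaling, at -1.57. The 7 higher rows included 5 of NXF3, a tissue-restricted relative of the export receptor, of which the top one held 138 to 165 FPKM against 20.8 to 27.0 FPKM (2.68 ± 0.13, adjusted p = 5.66e-07). THOC2, a TREX subunit, stood on 2 rows that went opposite ways as deposited, a main model called higher at 9.69 to 10.4 FPKM against 2.27 to 2.88 FPKM (1.67 ± 0.14) and the lower row of the list, at 0.284 to 0.590 FPKM against 2.54 to 3.45 FPKM (-1.47 ± 0.17). When libraries were centred on Sertoli genes, EIF4EBP1 lay at -0.19, the top NXF3 row at 0.54 and the main THOC2 model at -0.47.

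Of the mRNA storage and decay partners of DDX6 3 of 15 tested rows were higher and 3 lower as deposited, at a median of -0.14, and 1 was higher and 7 lower after median-of-ratios scaling, at a median of -0.74. YBX2, which packages stored mRNAs in germ cells, fell the most of any partner listed, at 59.1, 34.5 and 14 FPKM in C1 to C3 and 617, 672 and 613 FPKM in Y1 to Y3 (-4.32 ± 0.42, adjusted p = 2.44e-05). YBX1, its broadly expressed relative and the most abundant gene of the list, held 387 to 550 FPKM against 1952 to 2165 FPKM (-2.21 ± 0.14, adjusted p = 2.72e-06). DCP2, the decapping enzyme, was higher instead, at 38.3 to 47.5 FPKM against 8.65 to 11.9 FPKM (1.97 ± 0.14, adjusted p = 4.45e-06). These 3 genes kept their direction after median-of-ratios scaling, and DCP2 lay at -0.18 when centred on Sertoli genes.

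G-patch proteins, which switch on DEAH helicases, had 4 of 15 tested rows higher and 2 lower at a median of 0.45, and 2 higher and 2 lower at a median of -0.10 after median-of-ratios scaling. RBM17, a splicing factor, stood on 3 rows. The main one, the most abundant of the list, held 64.9 to 77.0 against 47.0 to 51.0 FPKM, at 0.55 ± 0.10, short of the fold threshold, another was called higher at 4.72 to 5.73 against 0.879 to 1.36 FPKM (1.5 ± 0.16), and the last was not tested. CMTR1, a cap methyltransferase that binds DHX15, rose by 1.80 ± 0.12 (80.4 to 102 against 24.2 to 27.4 FPKM), and SUGP1 fell by 1.87 on the log2 scale (12.2 to 16.2 against 54.3 to 57.1 FPKM). Of the 9 tested partners of the RIG-I pathway 4 were higher and 1 lower, IFIH1, at a median of 0.70, and 2 were higher and 1 lower at a median of 0.11 after median-of-ratios scaling. IRF3, the transcription factor at the end of the pathway and the most abundant of the list, was not called, at 0.70 ± 0.16 (29.3 to 36.3 against 15.0 to 22.4 FPKM). RNF135, a ubiquitin ligase for RIG-I, rose by 2.36 ± 0.17 (24.1 to 32.5 against 3.59 to 5.02 FPKM). Among 14 other helicases 3 were higher and 1 lower at a median of 0.15, and 3 were higher and 3 lower at a median of -0.30 after median-of-ratios scaling. This list was drawn up as superfamily 2, but UPF1, MOV10, MOV10L1 and HELZ in it belong to superfamily 1. UPF1, the central helicase of nonsense-mediated decay and the most abundant of the 14, was not called as deposited, at -0.83 ± 0.11 (52.1 to 60.7 against 90.3 to 111 FPKM). It was called lower after median-of-ratios scaling, at -1.44. DICER1, which cuts microRNA precursors, rose by 2.28 ± 0.12 (57.1 to 67.8 against 10.3 to 12.7 FPKM), and TDRD9, a piRNA-pathway helicase, held 18.9 to 24.4 against 48.2 to 73.1 FPKM (-1.44 ± 0.17). When libraries were centred on Sertoli genes, the RBM17 row called higher lay at -0.65, CMTR1 at -0.34, RNF135 at 0.22 and DICER1 at 0.13.

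**Figure D5:**
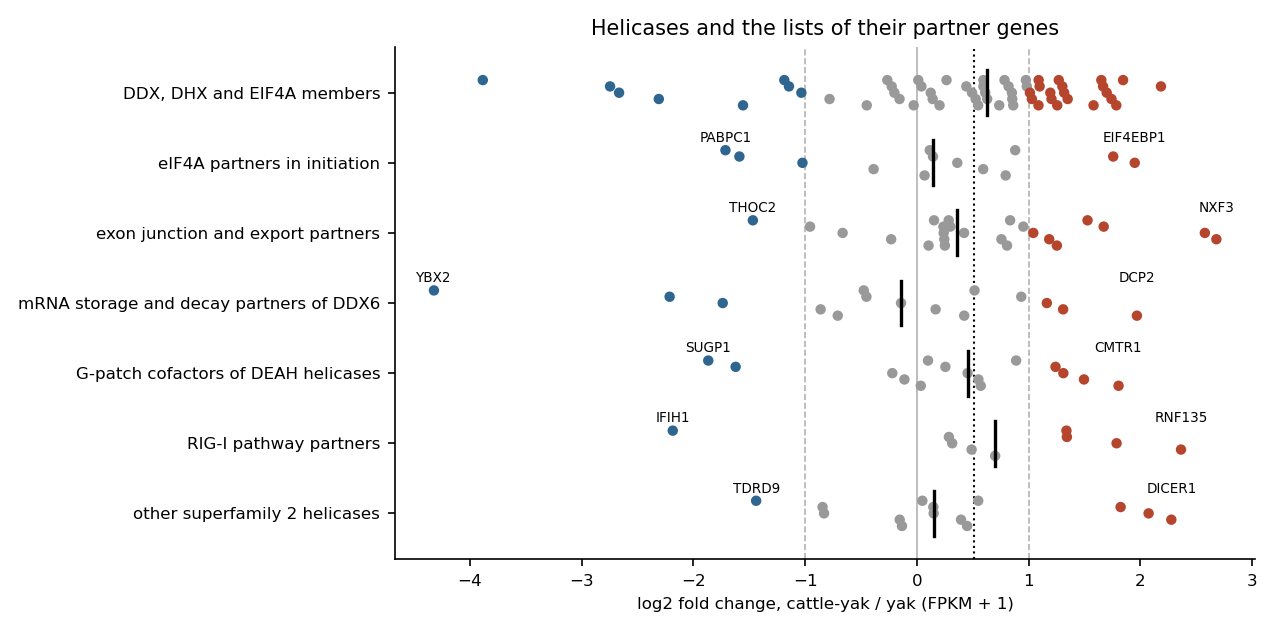
Log2 fold change (x axis, cattle-yak over yak on FPKM + 1) of each tested row of the helicases and of 6 lists of partner genes, in red where called higher, blue where called lower and grey where not called, with a black bar at the median of the list and a dotted line at 0.51, the median of all tested genes. The helicases lie at a median of 0.63, and medians of the partner lists run from -0.14 to 0.70 on the deposited scale and from -0.74 to 0.11 after median-of-ratios scaling. The list labelled other superfamily 2 helicases also holds UPF1, MOV10, MOV10L1 and HELZ, of superfamily 1.

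The table also carried Gene Ontology terms for 55 of the 59 members, which give another reading of the family by place in the cell. Of all genes 33.4% were called higher and 20.8% lower as deposited, and 17.7% and 27.7% after median-of-ratios scaling. As deposited, 8 of the 19 tested members annotated to the nucleolus were higher (42.1%) and 1 was lower, DDX28 (5.26%). After scaling 1 was higher and 1 lower, and the medians were 0.78 as deposited and 0.18 after scaling. Of 9 annotated to rRNA processing 3 were higher (33.3%) and 0 lower as deposited and 0 were called in either direction after scaling, with medians of 0.55 and -0.06. Among 7 annotated to the innate immune response 4 were higher as deposited (57.1%) and 3 after scaling, with 0 lower on either scale and medians of 1.32 and 0.72. Of 9 annotated to mRNA splicing via the spliceosome 2 were higher (22.2%) and 0 lower as deposited, and 1 was higher and 1 lower after scaling, with medians of 0.60 and -0.01.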

How the data were processed

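Testis RNA of 3 cattle-yak and 3 yak was sequenced by the authors from stranded, poly(A)-selected paired-end libraries, trimmed with Trimmomatic and mapped with HISAT2 to the yak genome. The FPKM values deposited by the authors, with Cufflinks and HTSeq named in the methods, are per gene length and library depth, without further scaling between libraries. Whole fragments and gene lengths were recovered here from the steps of the FPKM values for 17973 genes. In a simulation of 3000 genes, 98.6% of those detected in more than a single library came back exactly. The true depth was supplied there, so the estimate of depth was not tested. Because the values are FPKM, the study's count test was replaced by a linear model on the log scale, fitted in R 4.3.3 with limma 3.58.1, whose two-sided moderated test let the prior variance follow the mean level. On simulated data limma called 188 of 200 genes changed 4-fold and 3 of the unchanged genes among 15042. The simulation had few changed genes and no shift between libraries, whereas 81.9% of genes in the data passed the adjusted p. Its counts therefore do not carry over to these data. Ratios were tested by exact permutation of all 6 animals. Tables and figures were made with Python 3.11.15, numpy 2.4.6, pandas 2.3.3, scipy 1.17.1 and matplotlib 3.10.9.

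1 gene of the family is not reported here. Members and lists were chosen with earlier results of these data known. Named with values were the most abundant member of each role, the largest change in each direction, every member called lower, all germ cell members, the paralog pairs and symbols on several rows. For partner lists these were the most abundant gene and the largest change in each direction. Alternatives changed the pseudocount, filter, scaling, test, fold threshold and animals. Animals carry only names in accession order. Nothing beyond 1 library per animal is known. The p-values of limma set the group difference against the spread between these animals, drawn toward that of genes of similar level. Those of the ratios rest on the splits of these animals. Histology, RT-qPCR and splicing were not analysed here.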

Additional observations from a re-analysis of the deposited data

How the results depend on the processing

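The count of members called higher, 20, was 7 with median-of-ratios scaling, 0 when libraries were centred on the Sertoli list, 8 with voom on recovered fragments with size factors (chosen after seeing the data) and 36 with no fold change threshold. It was 18 to 23 under the other settings. The count of members called lower, 8, was 42 when centred on the Sertoli list and 7 to 11 otherwise. The 42 were 73.7% of the tested members, while 10713 of the 15042 tested genes were called lower there and 38 higher. The 0 and the 42 followed from the centring, which moved the median of all genes from 0.51 to -1.63. The median of the members, 0.63, was 0.73 with a pseudocount of 0.1 FPKM, 0.10 with median-of-ratios scaling, 0.67 with an equal FPKM sum, -1.52 when centred on the Sertoli list, 0.73 with voom and 0.11 with voom and size factors. Leaving out 1 animal at a time gave 0.63 to 0.68. The DDX21/DDX50 difference, near 0, ran from -0.11 to 0.15 when 1 animal was left out, and the other 4 pairs kept their direction. When centred on the Sertoli list these named members turned below 0: DDX58 (-0.48), DHX58 (-0.49), DDX19A (-1.32 and -1.41), DDX39B (-0.56), DDX6 (-0.94), DHX32 (-1.12), DDX18 (-0.45), DDX21 (-0.83), DDX31 (-2.13), DDX50 (-0.87), DDX17 (-1.06), DDX42 (-0.30), DDX5 (-1.94), EIF4A1 (-0.80) and the 4 tested EIF4A2 rows (-1.05, -0.36, -1.62 and -2.00). No paired analysis was possible because nothing in the labels ties an animal of one group to an animal of the other. The 3 animals a group limit the exact tests to a smallest p of 0.1, and members below about 1 FPKM rest on few fragments.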
